A study of Mus musculus with 6 samples.

Results

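The 39 genes described here code for the proteins that find and mend DNA double-strand breaks and DNA crosslinks, and they were taken from the 51804 gene symbols of the deposited table by name. The data were RNA sequencing profiles of mouse kidney. One group came from Ccnb1f/f;Cdh16-Cre mice (cko, 3 libraries) and the other from Ccnb1f/f mice without the Cre (control, 3 libraries), so both groups carried the floxed alleles of Ccnb1, which encodes cyclin B1. The Cdh16 promoter drives Cre in renal tubular epithelium, while vessels, stroma and immune cells of the whole kidney do not use it. The labels give neither age nor strain, and the extraction protocol names cultured cells as well as kidney. No label ties a replicate to its own animal. The spread behind each p-value is therefore that of the libraries, and may be technical. The question was how deleting cyclin B1 from tubular cells bears on cell cycle arrest and fibrosis of the kidney.

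A double-strand break is bound by the Mre11-Rad50-Nbn complex or by the Ku proteins. The first route signals through the kinases Atm and Atr, halts the cell cycle through Chek1 and Chek2, and leads to homologous recombination, which copies the sister chromatid and therefore works in S and G2 phase. The second route, end joining, religates the ends and works in all phases of the cycle, including in cells at rest such as most tubular cells. Crosslinks between the strands are unhooked by the Fanconi pathway. Checkpoint kinases act on the cyclin B1 and Cdk1 complex, which is the link between these genes and the targeted gene.

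Library totals were 16061435 to 21261226 estimated counts, and a gene at 0 may have had up to 3 counts, or 0.141 to 0.187 CPM (counts relative to the library total, here before adjustment by the trimmed mean of M-values, TMM); such limits cover counting error only. Kidney markers were present throughout, since all 10 proximal tubule, 11 distal nephron and collecting duct and 5 podocyte markers passed the expression filter. The targeted gene, Ccnb1, was not lower in the libraries labelled cko. It had 18, 15 and 11 counts in the cko libraries and 11, 17 and 7 in the controls, a log2 fold change of 0.34 (95% interval -0.71 to 1.39; exact two-sided permutation p = 0.4, where 3 against 3 cannot go below 0.1), and the labels do not name the deleted exons, so directions below are for libraries as labelled. The Ccnb1 value was 0.10 without control 3, 0.14 without cko 1 and 0.61 without control 2 or without cko 3. On the leading principal component, with 28.6% of the variance, control 2 lay at -49.6 against -7.2 to 22.1 for the other libraries.

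No repair gene passed the threshold between cko and control kidneys. Of the 39 genes, 35 passed the expression filter and 0 of these had an adjusted p under 0.05 (edgeR quasi-likelihood test, adjusted over 15017 genes), where 0.0133% of all tested genes did (0.00666% higher and 0.00666% lower). Adjusted p-values of the 35 ran from 0.9995 to 0.9999 in that edgeR test, 0 genes were at an unadjusted p under 0.05 (3.23% of all tested genes were), and DESeq2 also called 0. The 35 had a median log2 fold change of 0.06, with 24 above 0 and 11 below, and quartiles of 0 and 0.18. The median over all tested genes was -0.01, with quartiles of -0.13 and 0.11, and 49.0% of them were above 0. All 35 intervals held 0. For 28 of the 35 genes the 95% interval lay wholly within a log2 fold change of 1 in either direction, so that larger differences fell outside it. The other 7 intervals, those of Chek1, Chek2, Brca1, Bard1, Brca2, Rad54l and Blm, reached 1 or -1, and these genes had at most 59.5 counts per library on average.

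**Figure D1:**
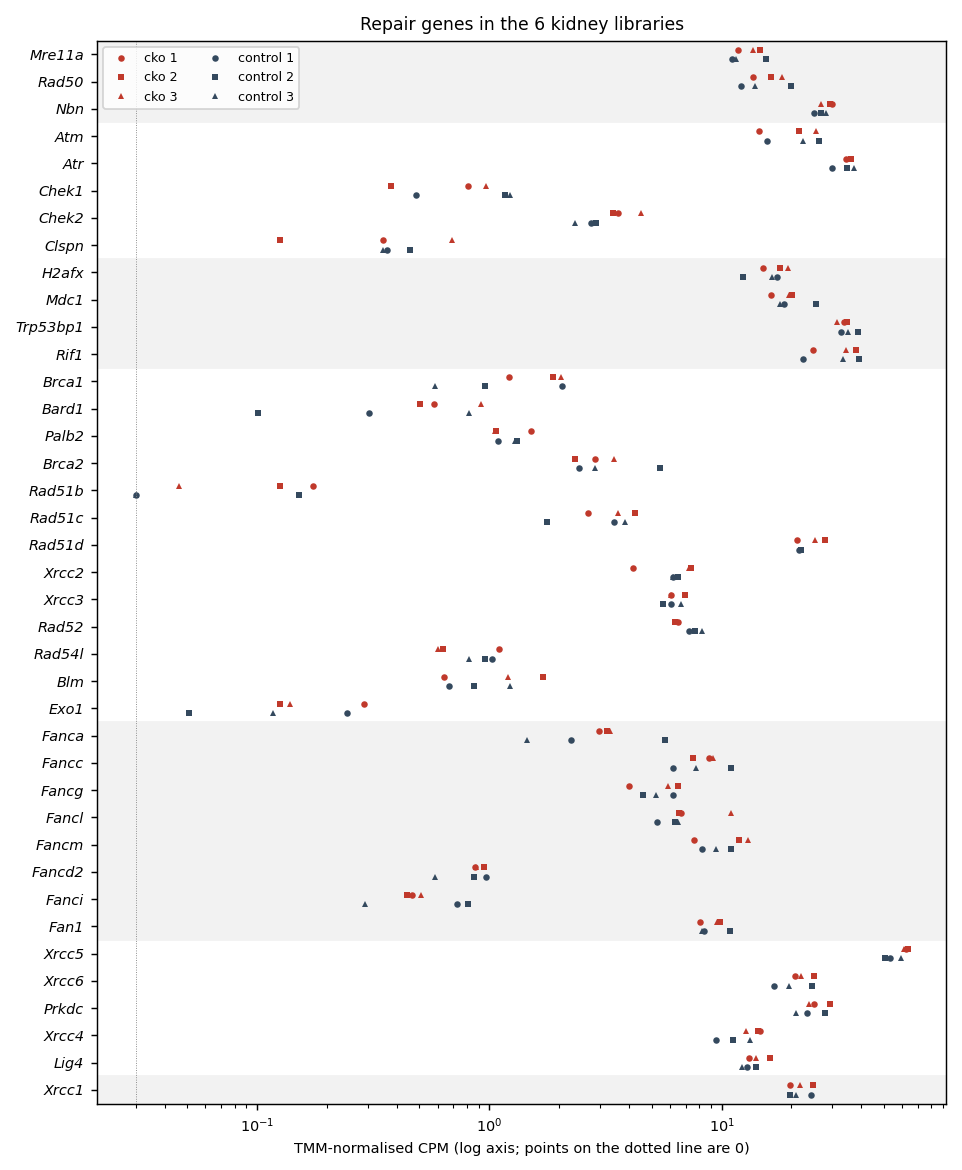
TMM-normalised CPM (log axis) of each of the 39 repair genes in every library, cko points above control points within each row; bands group the genes by role, and circles, squares and triangles are replicates 1, 2 and 3. Among the 35 tested genes the groups overlap in all rows but those of Chek2, Xrcc5, Fancl and Rad52.

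Summed over the 39 genes, expression was 442.2, 512.9 and 497.3 CPM in the cko libraries and 419.4, 496.5 and 460.4 CPM in the controls. The groups overlapped, with means of 484.1 ± 37.1 and 458.7 ± 38.6 CPM in cko and control kidneys (SD, n = 3 each). Per kilobase of transcript, 9 genes averaged 5 FPKM (fragments per kilobase of transcript, scaled to library size, summed over a gene's transcripts) or more over the 6 libraries, 18 averaged 1 to 5 FPKM and 12 were under 1 FPKM. The 9 were Xrcc5 (22.8 FPKM), H2afx (11.8), Xrcc1 (11.2), Rad51d (11.1), Nbn (11), Xrcc6 (10.3), Xrcc4 (8.34), Trp53bp1 (7.39) and Rif1 (5.56). The 12 were Brca2 (0.960 FPKM), Chek1 (0.497), Palb2 (0.405), Brca1 (0.292), Blm (0.280), Rad54l (0.247), Fancd2 (0.197), Exo1 (0.133), Clspn (0.128), Fanci (0.127), Bard1 (0.0950) and Rad51b (0.0467). Of the 5 end-joining genes, 3 were thus in the highest class, and of the 13 genes of homologous recombination only Rad51d was, while 8 were in the lowest. Whole kidney is a mixture of cells, and fewer cells of a type and less RNA per cell cannot be told apart in it.

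None of the 5 end-joining genes passed the test. Their log2 fold changes ran from 0.11 to 0.29, with a median of 0.15. The groups did not overlap for 1 of the 5, against 8.18% of all tested genes. Xrcc5, a Ku subunit that clamps onto broken ends, lies on chromosome 1, 72307421 to 72394952 (GRCm38, as are all coordinates here; plus strand), and had 1074, 1005 and 1326 counts in the cko libraries and 877, 1002 and 1017 in the controls. In TMM-normalised units these were 62.2, 63.4 and 61.2 CPM in cko kidneys and 53.2, 50.8 and 59.4 CPM in control kidneys. All 3 cko values lay above all 3 control values, yet the log2 fold change was only 0.19 (SE 0.10, interval -0.03 to 0.42; adjusted p = 0.9995, edgeR). Xrcc6, the other Ku subunit, had 20.7, 24.9 and 22.0 CPM in the cko libraries and 16.9, 24.5 and 19.5 CPM in the controls, and its groups overlapped. Per kilobase, Xrcc5 stood 2.38, 2.11 and 2.31 times as high as Xrcc6 in the cko libraries and 2.47, 1.72 and 2.44 times as high in the controls, although their proteins work as a pair.

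Prkdc, the kinase that Ku recruits to the break, was at 25, 29.2 and 23.9 CPM in cko libraries and 23.4, 27.8 and 20.9 CPM in controls. Xrcc4, the scaffold of the ligase that seals the ends, was at 14.7, 14.3 and 12.8 CPM in cko libraries and 9.47, 11.2 and 13.3 CPM in controls. Lig4, that ligase, was at 13.1, 16.1 and 14.1 CPM in cko libraries and 12.9, 14.1 and 12.2 CPM in controls. Groups overlapped in CPM for all 3. The log2 fold changes were 0.11 (interval -0.22 to 0.45) for Prkdc, 0.29 (-0.08 to 0.67) for Xrcc4 and 0.15 (-0.18 to 0.47) for Lig4. With 1 library left out, Prkdc ran from 0.02 (without cko 2 or control 3) to 0.23 (without control 2), Xrcc4 from 0.18 (without control 1) to 0.42 (without control 3) and Lig4 from 0.05 (without cko 2) to 0.21 (without cko 1). Summed over the 5 genes, expression was 135.7, 147.9 and 134.0 CPM in the cko libraries and 115.9, 128.4 and 125.3 CPM in the controls, with no overlap. Without Xrcc5 the sums were 73.5, 84.5 and 72.8 CPM in the cko libraries and 62.7, 77.6 and 65.9 CPM in the controls, and the groups overlapped. Xrcc1, the scaffold of single-strand break repair, was at 19.7, 24.7 and 21.8 CPM in cko libraries and 24.2, 19.8 and 20.9 CPM in controls.

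**Figure D2:**
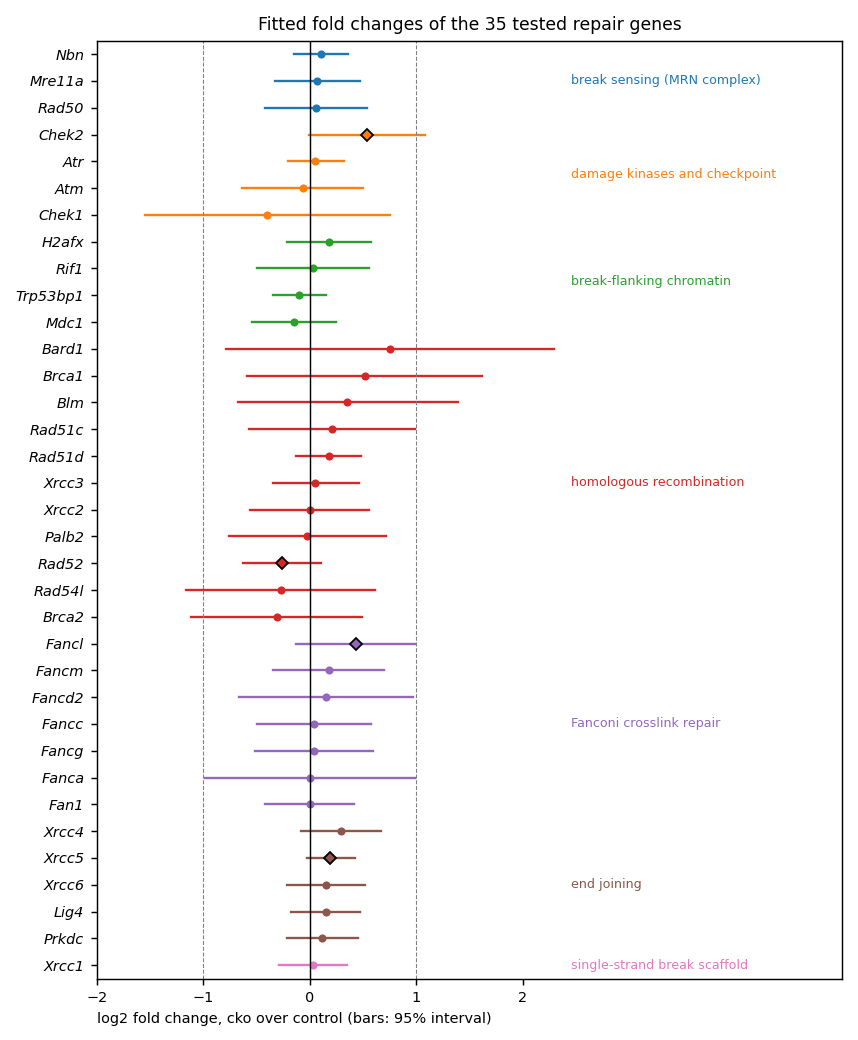
Fitted log2 fold change, cko over control (x axis), of the 35 tested repair genes with 95% intervals as bars, coloured by role; outlined diamonds mark the 4 genes whose groups did not overlap in CPM, and dashed lines stand at 1 and -1. All intervals hold 0, and the widest belong to rare genes such as Bard1, -0.79 to 2.29.

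Among the kinases, Chek2 differed most in relation to its error and Chek1 pointed the other way. Chek2 (chromosome 5, 110839979 to 110874145, plus strand), the effector kinase downstream of Atm, had 62, 54 and 98 counts in the cko libraries and 45, 57 and 40 in the controls. These were 3.59, 3.41 and 4.52 CPM in cko kidneys and 2.73, 2.89 and 2.34 CPM in control kidneys, so every cko library lay above every control. The log2 fold change was 0.54 (SE 0.24, interval -0.01 to 1.08; unadjusted p = 0.0521, adjusted p = 0.9995, edgeR), and it was 0.40 to 0.61 with any 1 library left out. Chek1, the effector kinase downstream of Atr, had 14, 6 and 21 counts in the cko libraries and 8, 23 and 21 in the controls, with overlapping groups. Its log2 fold change of -0.40 (interval -1.55 to 0.75) was -0.12 without cko 2, -0.19 without control 3, -0.23 without control 2, -0.68 without cko 3 and -0.71 without control 1.

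The kinases that sense damage overlapped between the groups. Atm, activated at double-strand breaks, was at 14.5, 21.6 and 25.5 CPM in the cko libraries and 15.7, 26.3 and 22.4 CPM in the controls. Atr, activated at single-stranded DNA, was at 34.2, 36.1 and 35.4 CPM in the cko libraries and 29.9, 34.8 and 37.1 CPM in the controls. Replicate 1 was the lowest library of each group for Atm, and its log2 fold change of -0.07 (interval -0.64 to 0.50) turned to 0.13 without cko 1 and 0.11 without control 2. For Atr it was 0.05 (interval -0.21 to 0.32), or -0.03 without control 1. Clspn, the adaptor through which Atr reaches Chek1, was too rare to test, with 6, 2 and 15 counts in the cko libraries and 6, 9 and 6 in the controls.

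The Mre11-Rad50-Nbn complex, which binds and trims broken ends, summed to 55.2, 60.2 and 58.5 CPM in the cko libraries and 48.2, 62.3 and 53.6 CPM in the controls, which overlapped. Nbn, the subunit that recruits Atm, was at 29.8, 29.4 and 26.7 CPM in cko libraries and 24.9, 26.9 and 28.1 CPM in controls, a log2 fold change of 0.10 (interval -0.15 to 0.36), or 0.06 without control 1 and 0.15 without cko 3. Mre11a, the nuclease, was at 11.8, 14.6 and 13.7 CPM in cko libraries and 11.1, 15.5 and 11.5 CPM in controls. Rad50, the subunit that tethers the ends, was at 13.6, 16.3 and 18.2 CPM in cko libraries and 12.1, 20.0 and 14.0 CPM in controls. Control 2 was the highest library for both Mre11a and Rad50, and without it their log2 fold changes were 0.24 and 0.30, against 0.07 (interval -0.33 to 0.47) and 0.06 (-0.42 to 0.54) with all 6 libraries. They were -0.02 and -0.08 without control 1, the lowest library for both.

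At chromatin beside the break, H2afx is the histone variant that Atm phosphorylates and Mdc1 is the protein that reads the phosphate. H2afx was at 15.1, 17.8 and 19.4 CPM in the cko libraries and 17.4, 12.4 and 16.5 CPM in the controls, with a log2 fold change of 0.18 (interval -0.22 to 0.57), or 0.04 without control 2 and 0.09 without cko 3. Reads of H2afx are uncertain where other histone genes have near-identical coding sequence. Mdc1 was at 16.4, 20.1 and 19.5 CPM in the cko libraries and 18.6, 25.5 and 17.9 CPM in the controls. Trp53bp1, which shields ends from trimming, was at 33.7, 34.6 and 31.3 CPM in the cko libraries and 32.8, 38.6 and 35 CPM in the controls. Its partner Rif1 was at 24.7, 37.8 and 34.3 CPM in the cko libraries and 22.4, 39.1 and 33.5 CPM in the controls. For Mdc1, Trp53bp1 and Rif1 control 2 held the highest value of the 6 libraries, and the log2 fold changes of -0.15, -0.10 and 0.03 became 0.03, -0.03 and 0.21 without it. For Rif1 it was -0.17 without control 1, -0.11 without cko 2 and -0.02 without cko 3.

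Many values of the homologous recombination genes rested on few counts. Brca1 had 21, 30 and 44 counts in the cko libraries and 34, 19 and 10 in the controls. Bard1, its partner in a ubiquitin ligase (chromosome 1, 71027498 to 71103146, minus strand), had 10, 8 and 20 counts in the cko libraries and 5, 2 and 14 in the controls. Both genes had overlapping groups and wide intervals, with log2 fold changes of 0.52 (interval -0.59 to 1.62) for Brca1 and 0.75 (-0.79 to 2.29) for Bard1, the largest value among the 35 genes. Leaving out 1 library moved Brca1 between 0.19 (without control 3) and 1.1 (without control 1), and Bard1 between 0.27 (without control 2) and 1.75 (without control 3). Brca2, a mediator of homologous recombination, had 49, 37 and 75 counts in the cko libraries and 40, 107 and 49 in the controls. Control 2 stood at 5.42 CPM of Brca2 against 2.33 to 3.46 CPM in the other 5 libraries, and the log2 fold change of -0.31 (interval -1.12 to 0.49) turned to 0.13 without it. Palb2, which joins Brca1 to Brca2, had 26, 17 and 23 counts in the cko libraries and 18, 26 and 22 in the controls.

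Rad52, which anneals single strands, was the only one of the 39 genes with all cko libraries below all controls in CPM. Its values count all transcripts, and over the 6 libraries 31.5% of its counts were on protein-coding and 61.9% on retained-intron transcripts. Rad52 (chromosome 6, 119902698 to 119922828, plus strand) had 112, 100 and 141 counts in the cko libraries and 119, 152 and 141 in the controls. After scaling, it was at 6.49, 6.31 and 6.50 CPM in cko kidneys and 7.22, 7.70 and 8.24 CPM in control kidneys, a log2 fold change of -0.26 (SE 0.16, interval -0.63 to 0.10; adjusted p = 0.9995, edgeR) that stayed between -0.31 and -0.21 with any 1 library left out. Over the 35 tested genes the groups did not overlap for 4, or 11.4%, with 3 higher in cko (Chek2, Xrcc5 and Fancl) and 1 lower (Rad52), where 8.18% of all tested genes did not overlap, 4.1% higher and 4.08% lower.

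Rad51b, Rad51c, Rad51d, Xrcc2 and Xrcc3, which act together in complexes during homologous recombination, had mean levels over the 6 libraries of 11.1 FPKM for Rad51d, 2.62 for Xrcc3, 2.00 for Xrcc2, 1.72 for Rad51c and 0.0467 for Rad51b. In CPM, Rad51d was at 21.1, 28.0 and 25.2 CPM in cko libraries and 21.6, 22.0 and 22.1 CPM in controls, Xrcc2 at 4.17, 7.38 and 7.24 CPM in cko libraries and 6.19, 6.49 and 6.19 CPM in controls, and Xrcc3 at 6.08, 6.94 and 6.09 CPM in cko libraries and 6.07, 5.62 and 6.72 CPM in controls. Rad51c was at 2.67, 4.23 and 3.6 CPM in cko libraries and 3.46, 1.77 and 3.86 CPM in controls. Rad51b, with 3, 2 and 1 counts in the cko libraries and 0, 3 and 0 in the controls, was too rare to test. In Rad51d and Xrcc2 the 3 controls lay close together, the cko libraries spread around them, and the groups of all 5 genes overlapped. The log2 fold changes of those tested were 0.18 (interval -0.13 to 0.48) for Rad51d, 0.05 (-0.35 to 0.46) for Xrcc3 and 0.21 (-0.57 to 0.99) for Rad51c, and Xrcc2 lay at 0 with an interval of -0.56 to 0.55. Rad51c turned to -0.07 without control 2 and Xrcc3 to -0.02 without cko 2. Rad51d was 0.07 without cko 2 and 0.28 without cko 1, and Xrcc2 was -0.14 without cko 2 and 0.22 without cko 1.

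Rad54l, Blm and Exo1 act late in recombination or in trimming of the ends, as a translocase, a helicase and a nuclease. Blm had 11, 27 and 26 counts in the cko libraries and 11, 17 and 21 in the controls, and its log2 fold change of 0.35 (interval -0.68 to 1.39) was 0.01 without cko 2 and 0.65 without cko 1. Rad54l had 19, 10 and 13 counts in the cko libraries and 17, 19 and 14 in the controls, and its log2 fold change of -0.27 (interval -1.16 to 0.61) was -0.60 without cko 1 and -0.11 without cko 3. Exo1, with 5, 2 and 3 counts in the cko libraries and 4, 1 and 2 in the controls, could not be tested.

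In the Fanconi pathway, Fancl stood highest relative to the controls. Fancl, the ubiquitin ligase of the core complex (chromosome 11, 26386135 to 26471876, plus strand), was at 6.72, 6.56 and 11 CPM in the cko libraries and 5.28, 6.28 and 6.48 CPM in the controls. The groups did not overlap in CPM, but cko 3 held most of the difference. The log2 fold change of 0.43 (SE 0.24, interval -0.13 to 0.99; adjusted p = 0.9995, edgeR) was 0.14 without cko 3. Fanca, another core subunit, was at 2.96, 3.22 and 3.32 CPM in the cko libraries and 2.25, 5.73 and 1.46 CPM in the controls. The controls of Fanca spanned both sides of the closely spaced cko libraries, and the log2 fold change, which lay at 0 (interval -0.99 to 0.99) with all libraries, was 0.77 without control 2, -0.34 without control 3 and -0.19 without control 1.

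The other core subunits overlapped between groups. Fancc was at 8.87, 7.51 and 9.22 CPM in cko libraries and 6.19, 11 and 7.77 CPM in controls, and Fancg was at 4.0, 6.50 and 5.90 CPM in cko libraries and 6.19, 4.61 and 5.20 CPM in controls. Fancm, the translocase that anchors the core complex on DNA, was at 7.59, 11.9 and 13.0 CPM in cko libraries and 8.25, 11 and 9.46 CPM in controls. Their log2 fold changes were 0.04, 0.04 and 0.18. With 1 library left out, Fancc ran from -0.14 (without control 1) to 0.29 (without control 2), Fancg from -0.11 (without cko 2) to 0.22 (without cko 1) and Fancm from 0.02 (without cko 3) to 0.38 (without cko 1). Fancd2 and Fanci, the pair that the core complex ubiquitinates, were rare. Fancd2 had 15, 15 and 19 counts in cko libraries and 16, 17 and 10 in controls. Fanci had 8, 7 and 11 counts in cko libraries and 12, 16 and 5 in controls, and was not tested. Fan1, a nuclease that binds ubiquitinated Fancd2, was at 8.06, 9.90 and 9.55 CPM in cko libraries and 8.38, 10.9 and 8.24 CPM in controls.

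**Figure D3:**
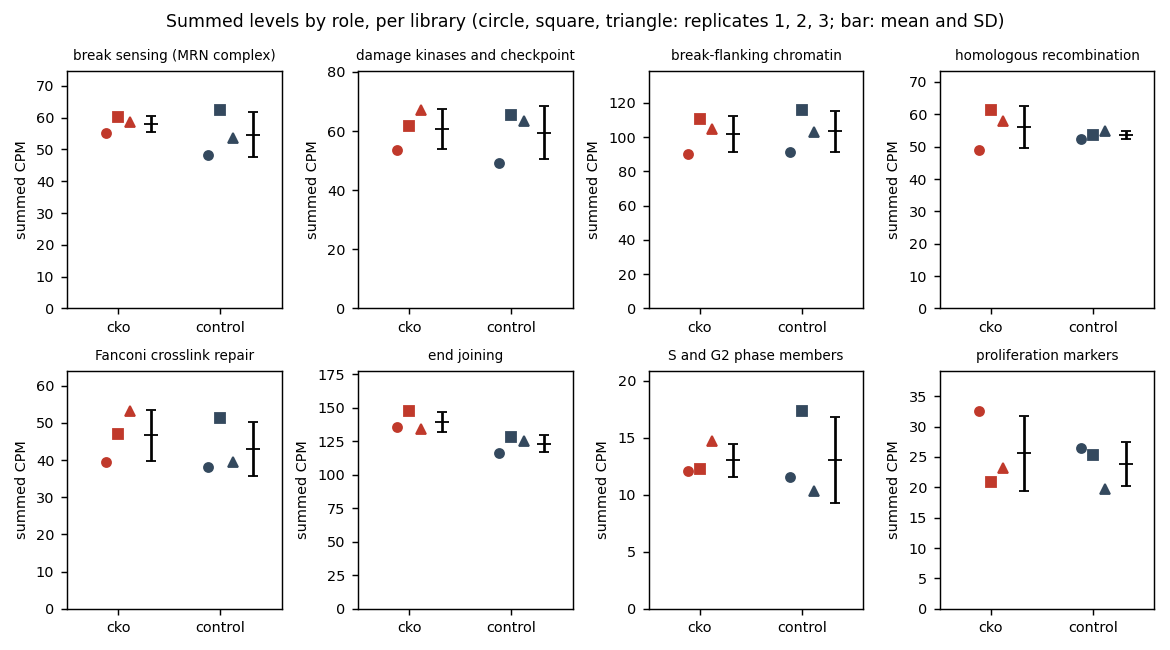
Summed CPM (y axis, from 0) of the repair genes of 6 roles, of the 11 repair genes of S and G2 phase and of 15 proliferation markers, with circles, squares and triangles for replicates 1, 2 and 3 and a bar for the mean and SD (n = 3). The groups overlap in all panels but end joining, where the cko libraries lie at 134.0 to 147.9 and the controls at 115.9 to 128.4.

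Genes whose transcription is known to peak in S and G2 phase took a small share of the reads of the 39 genes. Brca1, Brca2, Bard1, Chek1, Clspn, Exo1, Blm, Fanca, Fancd2, Fanci and Rad54l together took 2.74%, 2.40% and 2.96% of the summed CPM of the 39 genes in the cko libraries and 2.75%, 3.50% and 2.25% in the controls. Their sums were 12.1, 12.3 and 14.7 CPM in cko kidneys and 11.5, 17.4 and 10.3 CPM in control kidneys, with control 2 highest. Of the 8 that were tested, 4 lay above 0 and 4 below, with a median of 0.08, and 0 passed. The sums of 15 proliferation markers, Mki67 and Top2a among them, were 32.6, 20.9 and 23.25 CPM in cko kidneys and 26.5, 25.2 and 19.7 CPM in control kidneys. The library with the most proliferation markers, cko 1, was not the one with the highest sum of the S and G2 repair genes. Of the 8 intervals, 2 lay wholly within a log2 fold change of 1 in either direction.

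Libraries differed in which repair genes they held most of. Cko 2 was the highest library for 11 of the 35 tested genes (31.4%, against 15.0% of all tested genes), among them Xrcc5, Xrcc6, Prkdc, Lig4, Xrcc1, Rad51c and Rad51d. Control 2 was highest for 10 (28.6%, against 23.8% of all tested genes), among them Atm, Rif1, Mdc1, Trp53bp1, Brca2, Fanca, Mre11a and Rad50. Cko 1 and control 1 were lowest for 9 genes each (25.7%), against 15.7% and 18.7% of all tested genes. The medians of the 35 genes relative to their own means over the 6 libraries were -0.06, 0.13 and 0.12 on the log2 scale in the cko libraries and -0.14, 0.07 and -0.03 in the controls, while over all tested genes they were between 0.00 and 0.01. Leaving out cko 1 raised the median log2 fold change of the repair genes to 0.16, and leaving out control 3 lowered it to 0.02.

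**Figure D4:**
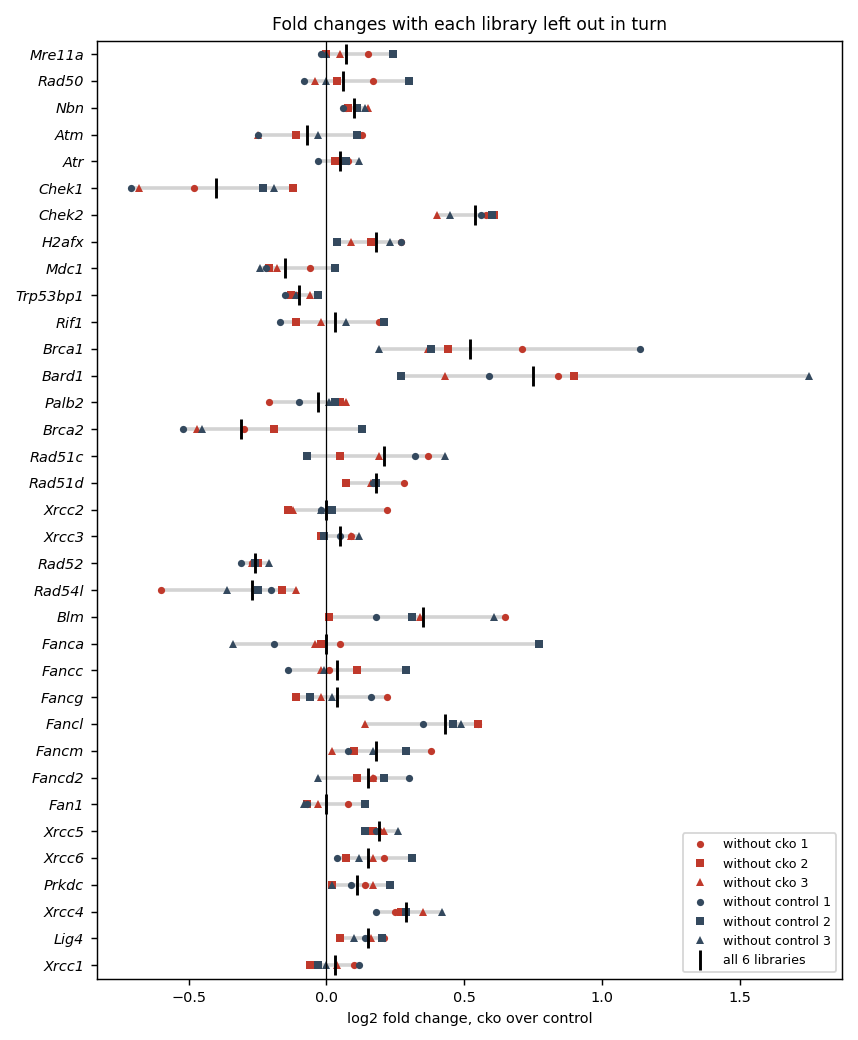
Log2 fold change, cko over control (x axis), of each tested repair gene with all 6 libraries (black bar) and with 1 library left out (red, a cko library; dark, a control; circle, square and triangle, replicates 1, 2 and 3). Chek2 (0.40 to 0.61), Xrcc5 (0.14 to 0.26) and Rad52 (-0.31 to -0.21) keep their sign, while Fanca runs from -0.34 to 0.77.

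Marker lists of other cells and of stress were summed in the same libraries, and 0 of their genes passed the threshold. Macrophage markers (10 of 10 above 0, none at 0 in all libraries) summed to 200.7, 168.8 and 149.9 CPM in the cko libraries. In the controls they summed to 130.7, 141.8 and 145.3 CPM, without overlap between the groups. Fibroblast and pericyte markers (8 of 9 below 0) summed to 195.5, 152.3 and 141.6 CPM in cko libraries. Their control sums of 217.0, 196.6 and 179.8 CPM overlapped with these. Single genes did not overlap for 2 of 10 macrophage and 3 of 9 fibroblast and pericyte markers, against 8.18% of all tested genes. At an unadjusted p under 0.05 (edgeR) were 1 and 4 of them, against 3.23% of all tested genes. Stress genes such as Fos and Hspa1a summed to 729.2 to 1124 CPM in the cko libraries and to 1032, 641.1 and 4589 CPM in the controls, the last in control 3. Their part in the values of the repair genes was not tested. Lymphocyte markers summed to 92.3, 107.3 and 170.8 CPM in the cko libraries and 164.4, 85.3 and 360.9 CPM in the controls. Most of each sum was Igkc, an immunoglobulin gene. It was at 73.8, 91.7 and 156.0 CPM in the cko libraries and 151.0, 71.5 and 342.0 CPM in the controls. The 15 tested targets of p53, the factor that Atm and Chek2 activate, summed to 742.7, 746.4 and 797.7 CPM in the cko libraries and 674.7, 629.5 and 635.7 CPM in the controls, without overlap. Of the 15, 3 did not overlap on their own and 3 were at an unadjusted p under 0.05, where 8.18% and 3.23% of all tested genes did so. They had a median log2 fold change of 0.24, with 13 above 0 and 0 past the threshold.

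For several repair genes most counts were not assigned to a protein-coding transcript. The table lists 288 transcripts for the 39 genes, of which 198 held at least 1 count over the 6 libraries, and the types below are those of GENCODE M21. For 24 genes at least 90% of the counts were on protein-coding transcripts, and for 9 genes 50% to 90% were. For 5 genes the share was under 50%, namely Rad51c (25.9%), Rad52 (31.5%), Chek1 (34.5%), Fanci (40.6%) and Rad54l (48.7%). Rif1 is left out of this grouping because 68.9% of its counts lay on a transcript that GENCODE M21 does not list. In Rad51c the transcript Rad51c-204, of the nonsense-mediated decay type, held 84.0%, 80.5% and 38.6% of the gene's counts in the cko libraries and 72.8%, 51.1% and 60.9% in the controls. In Rad52, retained-intron transcripts held 61.9% over the 6 libraries, led by Rad52-214 with 32%, 28.1% and 26.4% in the cko libraries and 27.1%, 34.2% and 39.1% in the controls. In Chek1 a processed transcript, Chek1-207, held 39.7%, 100% and 100% in the cko libraries and 29.6%, 31.8% and 27.4% in the controls, out of 6 to 23 counts per library. In Fanci, Fanci-204 held 100% in all 3 cko libraries and 74.5%, 0% and 0% in the controls, out of 5 to 16 counts per library. Transcript shares are the authors' estimates of how reads common to several transcripts divide, and those of genes with so few counts are given as values only.

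Among the better covered genes, Rad51d had 58.7% of 2523 counts on protein-coding transcripts and 41.3% on nonsense-mediated decay transcripts. The protein-coding share was 70.5%, 55.5% and 68.9% in the cko libraries and 39.8%, 56.8% and 56.1% in the controls. Trp53bp1 had 24.9% of its counts on nonsense-mediated decay transcripts, and its protein-coding share was 74.3%, 72.3% and 63.4% in cko libraries and 61.5%, 71.9% and 67.9% in controls. Mre11a counts lay mainly on a pair of protein-coding transcripts, Mre11a-201 and Mre11a-202, of which Mre11a-202 held 62.3%, 62.2% and 62.1% in the cko libraries and 48.2%, 54.9% and 56.8% in the controls. The protein-coding share was 98.5%, 97.5% and 96.3% in cko libraries and 78.7%, 91.0% and 94.2% in controls for Fancm, and 80.9%, 81.6% and 84.3% in cko libraries and 66.6%, 79.7% and 73.9% in controls for Fancc. Groups overlapped for Rad51d and Trp53bp1 and did not for Mre11a-202, Fancm and Fancc. Shares were also tallied for repair genes with at least 500 counts over the 6 libraries and a share that varied. The protein-coding share did not overlap for 3 of 17 (17.6%: Fancc, Fancm and Xrcc3), against 10.3% of 7530 genes in all. For Xrcc3 it was 100% in each cko library and 99.0%, 99.1% and 99.4% in the controls. That difference rested on at most 1.0 count per control library. Under the same minimum, the share of a single transcript did not overlap for 5 of 22 transcripts of these genes (22.7%), against 10.8% of 14476 in all. The 5 were Mre11a-201, Mre11a-202, Fancm-201, Nbn-201 and Xrcc3-201, and they are not independent. Both Mre11a transcripts divide most counts of the same gene, so its shift entered through each of them. Xrcc3-201 rested on the few counts given above, and Nbn-201 in control 1 on 0.1 counts of Nbn-202. The 22.7% is therefore not read as an excess over 10.8%. These tallies were added after the values were seen, and no test of transcripts was made. Exons of 16 of the 39 genes share bases with exons of another gene in GENCODE M21, 11 of them with a protein-coding gene (Rad54l with Lrrc41, Fanci with Polg, Fanca with Zfp276, Trp53bp1 with Tubgcp4 and Fancl with Vrk2 among them). The labels do not say whether libraries were stranded, so reads from such overlaps may not be told apart.

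**Figure D5:**
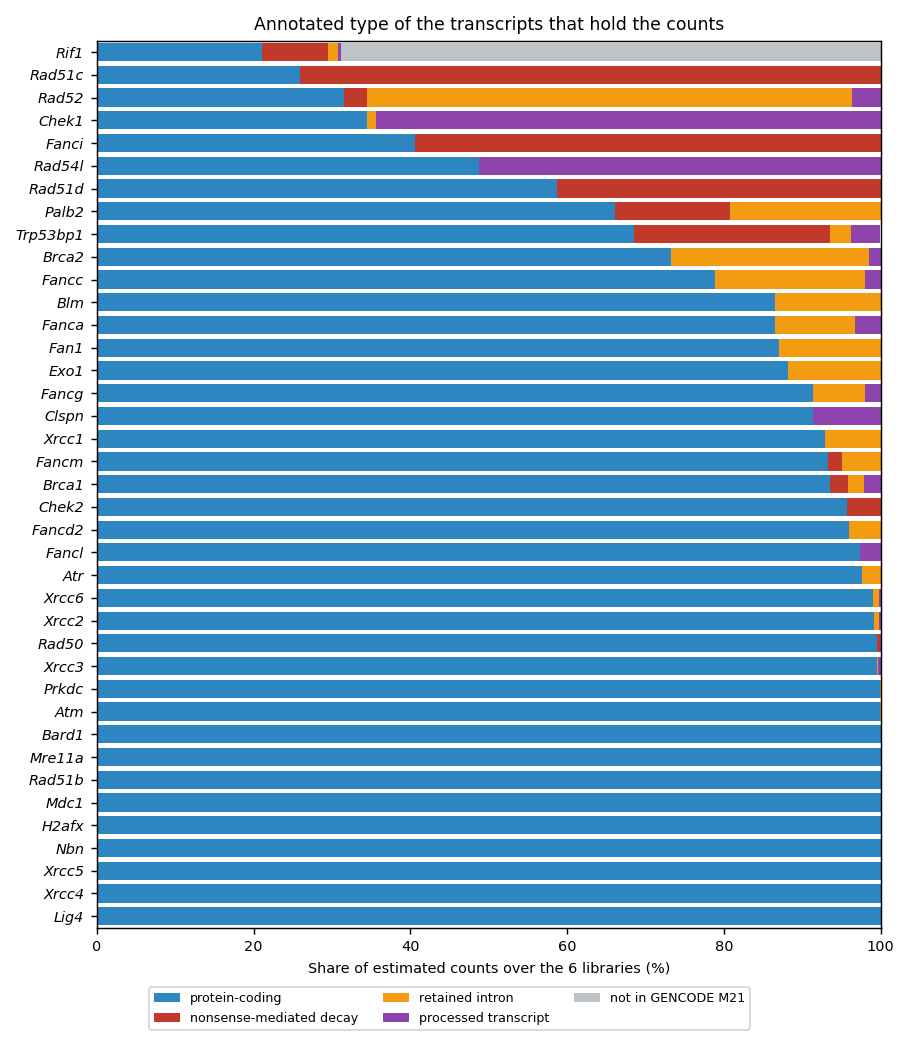
Share of each repair gene's estimated counts, summed over the 6 libraries (x axis, percent), by the GENCODE M21 type of the transcript they were assigned to, ordered by the protein-coding share. Rad51c, Rad52, Chek1, Fanci and Rad54l lie under 50% protein-coding, and 68.9% of Rif1 counts are on a transcript that is not in GENCODE M21.

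Promoters of the repair genes were searched for letter matches to sites of E2F factors, which switch on genes at the start of S phase. RefSeq promoters (GRCm38.p6, 250 bases before to 50 bases after the start) were matched for 30 of the 39 genes. A 7-letter E2F core (the letters TTTCCCG or else TTTCGCG or else TTTGCCG or else TTTGGCG, on either strand) was present in 11 of these 30 (36.7%) against 7.6% of 27025 genes, counting a gene once if any of its promoters held it. The 11 were Bard1, Brca2, Chek1, Chek2, Clspn, Fancg, Mdc1, Rad51b, Rad51c, Trp53bp1 and Xrcc6, that is 4 of the 9 matched genes of S and G2 phase and 7 of the 21 others. The CCAAT box, which binds NF-Y, was in 17 of 30 (56.7%) against 41.1% of all genes, and TTTGAA, the core of the element of genes expressed in mitosis, in 2 of 30 (6.7%, Bard1 and Rad51b) against 20.2% of all genes. A match is a string of letters and not a bound site, and matches of different motifs may overlap. The promoters of all genes were not matched to those of the repair genes for base content. The promoters of Chek2, the gene with the lowest unadjusted p, Bard1, the gene with the largest fold change, and Xrcc5, the most abundant gene, are shown 5′ to 3′ along the strand of the gene, with matches to any of these motifs on either strand in capitals. They lie at chr5:110839733-110840032 (plus strand), chr1:71102923-71103222 (minus strand) and chr1:72307171-72307470 (plus strand). The Chek2 window holds an E2F core and CCAAT boxes, all read on the other strand, that of Bard1 an E2F core and TTTGAA, and that of Xrcc5 a single CCAAT box on the other strand.
Chek2: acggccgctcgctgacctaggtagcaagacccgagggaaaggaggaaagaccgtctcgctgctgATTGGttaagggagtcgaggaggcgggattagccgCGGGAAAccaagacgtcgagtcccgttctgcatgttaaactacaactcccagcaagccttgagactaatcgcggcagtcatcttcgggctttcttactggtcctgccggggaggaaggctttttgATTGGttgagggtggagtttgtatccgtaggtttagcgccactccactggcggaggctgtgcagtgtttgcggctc
Bard1: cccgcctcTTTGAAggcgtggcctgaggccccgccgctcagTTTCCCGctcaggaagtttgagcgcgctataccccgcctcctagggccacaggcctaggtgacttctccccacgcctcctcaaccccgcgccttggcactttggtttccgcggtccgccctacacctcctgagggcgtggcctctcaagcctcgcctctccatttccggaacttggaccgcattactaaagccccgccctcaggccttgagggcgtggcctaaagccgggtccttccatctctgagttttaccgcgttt
Xrcc5: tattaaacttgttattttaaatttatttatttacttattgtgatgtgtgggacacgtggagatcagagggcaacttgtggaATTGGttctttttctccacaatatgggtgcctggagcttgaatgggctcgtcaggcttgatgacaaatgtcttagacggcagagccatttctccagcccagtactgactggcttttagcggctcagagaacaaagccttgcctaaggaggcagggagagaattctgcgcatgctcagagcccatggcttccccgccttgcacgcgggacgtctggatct

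Further genes of the same pathways were counted in the same way. Of 59 tested genes of double-strand break repair outside the 39, 0 passed the threshold in edgeR or DESeq2, 39 lay above 0 and 20 below, and the median log2 fold change was 0.04. The 2 of lowest p were Smc5, a subunit of a ring complex that acts in repair, and Sfr1, an accessory factor of homologous recombination. Smc5 was at 41.7 ± 0.359 CPM in cko kidneys and 25.7 ± 9.32 CPM in control kidneys (SD, n = 3 each), with a log2 fold change of 0.70 (SE 0.22; adjusted p = 0.9995, edgeR). Sfr1 was at 29.9 ± 1.25 CPM in cko kidneys and 23.9 ± 0.857 CPM in control kidneys (SD, n = 3 each), with a log2 fold change of 0.32 (SE 0.10; adjusted p = 0.9995, edgeR). Groups did not overlap for 5 of the 59 (8.47%), Smc5 and Sfr1 included, against 8.18% of all tested genes, and 2 of the 59 were at an unadjusted p under 0.05, against 3.23% of all tested genes. The most abundant were Swi5, Babam1 and Trrap, at log2 fold changes of -0.18, 0.21 and -0.09. Of 20 further tested genes of crosslink repair, 0 passed, 10 lay above 0 and 10 below, with a median of 0.01. Slx4, the scaffold of crosslink nucleases, was at 56.7 ± 10.3 CPM in cko kidneys and 57.8 ± 4.42 CPM in control kidneys (SD, n = 3 each).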

How the data were processed

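Kidney RNA of 3 cko and 3 control libraries was sequenced by the authors, and groups and replicate numbers follow the sample titles. The authors deposited estimated counts per transcript, not normalized, and FPKM values beside them. Tools named in the submitters' processing notes include the aligner HISAT2 2.0.1, the trimmer cutadapt 1.9.1 and Cuffdiff 2.2.1, and the build is GRCm38. What made the counts, and whether libraries were stranded, is not given in the sources used.

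Estimated counts of 128603 transcripts were summed per gene symbol and rounded. The test was edgeR 4.0.16 (quasi-likelihood, two-sided) run in R 4.3.3 with all 6 libraries. It used TMM scaling, filterByExpr with a minimum count of 10, and no term but group. P-values were adjusted by Benjamini-Hochberg over 15017 genes, with 0.05 as the threshold. CPM are TMM-normalised, and intervals are at 95%. FPKM were summed per gene. Alternatives were DESeq2 1.42.0, limma 3.58.1, other scalings and filters, a replicate block and leaving out each library. The procedure was tested on simulated data. Reads carry no molecular identifiers, so limits from counts cover counting error alone.

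The genes and all lists were chosen with earlier results of these data known. All 39 genes are named, and further repair genes are named where they were the 3 most abundant or the 2 of lowest p of their list. Values of 1 further gene are not reported here.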

Additional observations from a re-analysis of the deposited data

How the results depend on the processing

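Over 16 alternative settings, 0 of the tested repair genes passed the threshold, and the lowest adjusted p of any of them was 0.873. The count over all genes was 2, against 15 with DESeq2, 5 without a filter, 1 with limma on log2(FPKM + 1) or log2(FPKM + 0.1), 1 with library quality weights and 1 to 6 with 1 library left out. Repair genes at an unadjusted p under 0.05 numbered 0, against 1 with quality weights and 0 to 2 with 1 library left out. The 4 genes without overlap became 4 to 11 with 1 library left out, where fewer libraries are compared and groups separate more easily. The same share over all tested genes was not counted there, so this rise is not a result about the repair genes. By FPKM, a setting chosen after seeing the data, the number was also 4, but with Xrcc4 in place of Fancl. Fancl was at 3.73, 3.85 and 6.67 FPKM in cko libraries and 3.40, 3.75 and 4.29 FPKM in controls, which overlapped. Xrcc4 was at 10.11, 9.14 and 8.75 FPKM in cko libraries and 5.92, 7.75 and 8.38 FPKM in controls, which did not. The median log2 fold change of 0.06 ran from 0.021 to 0.159. Of 535 single-gene values under alternatives, 0 crossed the threshold and 35 changed sign, 27 of them with a library left out, in 16 genes. That count leaves out Fanca, Xrcc2 and Fan1, whose values lay at 0 with all libraries and ran from -0.34 to 0.77, -0.14 to 0.22 and -0.08 to 0.14 with 1 library left out. With limma on log2(FPKM + 1), Trp53bp1 was 0.07, Fancc -0.11 and Fancg -0.08. On log2(FPKM + 0.1), Trp53bp1 was 0.08, Fancc -0.14, Fancg -0.12 and Fancm -0.01. With quality weights, Atm was 0.02. The cause was not tested. With 1 library left out, the ranges were -0.25 to 0.13 for Atm, -0.17 to 0.21 for Rif1, -0.21 to 0.07 for Palb2, -0.02 to 0.12 for Xrcc3, -0.11 to 0.22 for Fancg, -0.06 to 0.12 for Xrcc1, -0.08 to 0.30 for Rad50, -0.14 to 0.29 for Fancc, -0.02 to 0.24 for Mre11a, -0.03 to 0.12 for Atr, -0.24 to 0.03 for Mdc1, -0.52 to 0.13 for Brca2, -0.07 to 0.43 for Rad51c and -0.03 to 0.30 for Fancd2. Deviations of same-numbered libraries from their group means correlated at 0.09, -0.091 and 0.116 for replicates 1, 2 and 3 over 15017 genes. Those of unlike-numbered libraries correlated at -0.17 to 0.076, so replicates 1 and 3 lay above that range and replicate 2 did not. With a replicate block 2 genes in all and 0 repair genes passed, with a median of 0.082. Depth limits the genes with few counts, of which 4 could not be tested.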

Other observations

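Repair of other lesions was measured in the same libraries. Of 20 tested genes of nucleotide excision repair, which cuts out bulky damage, 12 lay above 0 and 8 below (median 0.03, log2 scale), and 0 passed the threshold in edgeR or DESeq2. At an unadjusted p under 0.05 there were 2 of the 20, against 3.23% of all tested genes, and groups did not overlap for 4 of the 20, against 8.18%. Xpa, which verifies the damage, was at 19.0, 19.6 and 19.8 CPM in the cko libraries and 11.4, 13.6 and 16.8 CPM in the controls, a log2 fold change of 0.48 (SE 0.16; adjusted p = 0.9995, edgeR). Cetn2, part of the complex that recognises damage, was at 42.0, 44.6 and 43.9 CPM in the cko libraries and 38.0, 35.6 and 34.5 CPM in the controls, a log2 fold change of 0.27 (SE 0.10; adjusted p = 0.9995, edgeR). Groups did not overlap for either gene.

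Of 21 tested genes of base excision repair, 11 lay above 0 and 10 below, with a median of 0.00. Parp1, which senses strand breaks, was at 56.3, 55.0 and 60.5 CPM in the cko libraries and 60.8, 59.0 and 57.1 CPM in the controls. Of 10 tested genes of mismatch repair, 5 lay above 0 and 5 below, with a median of -0.04. Pcna, the sliding clamp of replication and repair, was at 42.1, 41.6 and 45.3 CPM in the cko libraries and 46.1, 48.7 and 47.0 CPM in the controls, so every cko library lay below every control (log2 fold change -0.13, interval -0.35 to 0.08). Groups did not overlap for 2 of the 21 base excision genes (1 higher and 1 lower in cko). They did not overlap for 2 of the 10 mismatch genes, Pcna included (both lower), against 8.18% of all tested genes. In both lists 0 genes passed the threshold in edgeR or DESeq2, and 0 were at an unadjusted p under 0.05 in edgeR.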
